A study of Mus musculus with 27 samples.

Results

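The STAT factors and SOCS feedback genes described here are 9 genes picked by name, Stat2, Stat3, Stat4, Stat5a, Stat6, Socs1, Socs2, Socs3 and Cish, out of 54532 genes in the deposited count table. Their transcripts were read in 27 libraries of mixed glia, primary cultures that hold astrocytes, microglia and cells of the oligodendrocyte lineage, grown from the cortex of C57BL/6 mouse pups aged 3 to 6 days. All cultures were kept 14 days in vitro, and treatments lasted 24 h. Experiment 1 had 5 groups of 3 libraries: untreated, LPS at 100 ng/mL, LPS with 50 nM bryostatin, LPS with IFN-gamma at 20 ng/mL, and LPS with IFN-gamma and bryostatin at the same doses. Experiment 2 had 4 groups of 3: untreated, bryostatin at 50 nM, IL-4 at 20 ng/mL, and IL-4 with bryostatin. Bryostatin is a marine macrolide that binds the diacylglycerol site of protein kinase C, LPS is a bacterial cell wall component sensed by Toll-like receptor signalling, and IFN-gamma and IL-4 are cytokines made by lymphocytes. The labels do not tie libraries to cultures or animals, so each p-value measures the spread between libraries, which may be technical. RNA came from whole cultures, in which fewer cells of a type and less RNA per cell cannot be told apart.

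STAT proteins are transcription factors that wait in the cytoplasm. When a cytokine binds its receptor, receptor-bound Janus kinases phosphorylate a STAT, which pairs through its SH2 domain, enters the nucleus and switches on genes. SOCS proteins, of which Cish is the founding member, are among those genes, and they bind the kinases or the receptors and damp the same signal. In glia, the interferon branch is known for antiviral and antigen presenting programmes, the STAT3 branch for reactive astrocytes, and the STAT6 branch for the response of microglia to IL-4.

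Total counts ran from 17230058 to 28687281 per library, so that 3 counts equal 0.105 to 0.174 counts per 1000000 (CPM). CPM values here are scaled by the trimmed mean of M-values (TMM), a normalization that makes most genes level between libraries. The untreated libraries labelled replicate 1 stood apart in both experiments. Sox10, an oligodendrocyte lineage factor, read 0.161 CPM in that library of experiment 1, where the other 2 untreated libraries had 33.4 and 30.1 CPM. In experiment 2 the order was inverted, with 39.0 CPM in replicate 1 and 0.281 and 0.228 CPM in the rest. The treated libraries held 7.11 to 34.4 CPM of Sox10 in experiment 1 and 0.0354 to 0.482 CPM in experiment 2. Over the genes, log2 CPM of the library labelled untreated replicate 1 of experiment 1 correlated at r = 0.988 with each of the other 2 untreated libraries of experiment 2, and at 0.949 and 0.950 with those of its own group. The library labelled untreated replicate 1 of experiment 2 correlated at 0.977 and 0.968 with the other 2 of experiment 1, and at 0.941 and 0.931 with its own group. Both thus lay nearer to the other experiment than to the one on their label, and whether they were exchanged cannot be told from the labels and was not tested. Labels were kept as given, so untreated here means the libraries labelled untreated, and log2 fold changes against untreated are also given without both of these libraries. Bryostatin replicate 2 of experiment 2 stood apart as well: the chi-square per degree of freedom of its counts was 72.7 and 69.7 against the other 2 bryostatin libraries, which differed from each other by 5.72. Summed over 12 microglial markers, the libraries of experiment 1 fell into ranges of 1612 to 1928 CPM untreated, 1037 to 1132 with LPS and 749 to 854 with LPS and IFN-gamma. Astrocyte markers, 9 in number, went from 11619 to 14683 CPM untreated to 8897 to 9433 with LPS and 6784 to 7315 with LPS and IFN-gamma. Oligodendrocyte lineage markers (9) summed to 717 to 988 CPM untreated, 727 to 753 with LPS and 378 to 425 with LPS and IFN-gamma. Fibroblast and mural markers (5) were higher with LPS, at 1656 to 1983 CPM against 545 to 1244 untreated, and stood at 1029 to 1656 with IFN-gamma added. Neuron markers (6) summed to 45.2 to 50.5, 50.9 to 55.7 and 105 to 121 CPM in the same order, and endothelial markers (5) to 24.7 to 34.6, 39.0 to 40.5 and 44.7 to 62.6 CPM. No microglial or astrocyte marker was at 0 in any group, while Cldn5 of the endothelial list was at 0 in these 3 groups and Mog of the oligodendrocyte list with LPS. The part of these marker changes in the results below was not tested.

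All 9 genes are protein coding. In mm10, Stat2 (10:128270559-128292849), Stat6 (10:127642986-127660957) and Socs2 (10:95385362-95417180) lie on chromosome 10. Stat3 (11:100885098-100939540), Stat5a (11:100859351-100885169) and Socs3 (11:117966079-117970047) lie on chromosome 11. Stat4 is at 1:51987148-52107189, Cish at 9:107296026-107302784 and Socs1 at 16:10782240-10785536. Stat3 and Stat5a face each other and share 72 bases at their 3′ ends, Stat6 shares 40 bases with Nab2 on the other strand, and Cish and Stat4 are overlapped by pseudogenes or noncoding genes that reached at most 7 counts in any library. The libraries carry no strand, so reads within those overlaps cannot be assigned to 1 gene.

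RefSeq start-site windows on GRCm38.p6, 250 bases before to 50 after each start, were matched for 8 of the 9 genes, in 10 windows. They were searched on both strands for 3 motifs: the gamma-activated site bound by STAT dimers (TTCNNNGAA, in 8.3% of all 32851 windows), the wider spaced site favoured by STAT6 (TTC and GAA with 4 bases of any kind between them, in 6.95%), and the core of the interferon-stimulated response element bound by the complex that contains STAT2 (GAAA and GAAA with 2 bases of any kind between them, or TTTC and TTTC on the other strand, in 3.44%). The interferon element core was found before the starts of Socs1, Stat2 and Stat4, and the gamma-activated site at Socs3 and Cish. These are shown because the same genes gave the widest differences below, and the capitals mark the motif letters. A match is a description of these letters and not a measured binding site, and its part in those differences was not tested. The first shows the 250 bases before the start of Socs1, chr16:10785537-10785786 on the minus strand, with 2 interferon element cores that overlap, at bases -83 to -74 and -77 to -68 from the start.
Socs1: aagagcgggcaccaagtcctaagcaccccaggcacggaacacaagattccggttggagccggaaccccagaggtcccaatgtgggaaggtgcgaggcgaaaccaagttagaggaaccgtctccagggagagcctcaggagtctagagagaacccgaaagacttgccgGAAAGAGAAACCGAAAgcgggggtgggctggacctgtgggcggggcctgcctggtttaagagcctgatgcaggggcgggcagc
In the 250 bases before Stat2, chr10:128270248-128270497 on the plus strand, the interferon element core lies at -222 to -213 and a STAT6-type spacing at -210 to -201.
Stat2: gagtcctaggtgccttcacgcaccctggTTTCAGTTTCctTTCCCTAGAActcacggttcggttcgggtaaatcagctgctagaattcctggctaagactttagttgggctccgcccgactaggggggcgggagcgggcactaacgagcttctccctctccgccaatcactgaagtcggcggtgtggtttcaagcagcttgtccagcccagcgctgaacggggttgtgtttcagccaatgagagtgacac
For Stat4 the core was found in the window of the second RefSeq start, chr1:52007990-52008239 on the plus strand, which lies inside the gene, at -97 to -88.
Stat4: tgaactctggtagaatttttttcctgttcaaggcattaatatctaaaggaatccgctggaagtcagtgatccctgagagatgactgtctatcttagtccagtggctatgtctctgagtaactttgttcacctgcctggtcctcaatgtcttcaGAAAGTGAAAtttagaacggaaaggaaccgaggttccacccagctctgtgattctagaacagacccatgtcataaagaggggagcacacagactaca
The gamma-activated site of Socs3, at -154 to -146, is shown with 9 bases on either side, chr11:117969503-117969529 on the minus strand. This RefSeq start and the site before it lie inside the gene positions given above.
Socs3: aaaccagccTTCTTAGAAgggaggggg
Cish carries a pair of gamma-activated sites at bases 1 to 9 and 12 to 20 after the RefSeq start, chr9:107296659-107296678 on the plus strand. That start, too, lies inside the gene positions given above.
Cish: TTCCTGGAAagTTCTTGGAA
None of these motifs was found in the windows of Stat3, Stat5a and Stat6, and Socs2 was not matched.

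LPS changed 7 of the 9 genes against untreated cultures of experiment 1. Stat2, Stat3, Stat5a, Stat6, Socs1 and Socs3 rose and Socs2 fell, by edgeR's quasi-likelihood test with Benjamini-Hochberg adjustment over 16073 genes at an adjusted p under 0.05. Across all tested genes 38.4% were called, 19.5% higher and 18.8% lower. The median log2 fold change was 0.88 over the 9 genes and -0.01 over all tested genes. Without both untreated libraries labelled 1, 8 of the 9 were called, 7 of them higher. In that fit 7032 of all 16417 tested genes were called, beside 6164 of 16073 with them.

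Stat2, the STAT that joins Irf9 in the complex activated by type I interferon, moved most. It stood at 22.9, 36.6 and 34.8 CPM untreated and at 261, 273 and 262 CPM with LPS. The LPS libraries lay close together and far above every untreated one, and the log2 fold change was 3.08 ± 0.14 (SE, adjusted p = 2.8e-11), or 2.90 without the untreated libraries labelled 1. Stat3, which carries signals of the IL-6 family, went from 360, 327 and 332 CPM to 634, 597 and 645 CPM. That is a smaller relative rise from a much higher level, 0.88 ± 0.07 on the log2 scale (adjusted p = 5.2e-08) and 0.93 without those libraries, with no overlap of the groups.

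Stat5a, which serves growth hormone, prolactin and the GM-CSF family, read 17.0, 7.65 and 7.86 CPM untreated and 29.2, 25.3 and 27.6 CPM with LPS. The high untreated value belongs to the library labelled replicate 1. Its log2 fold change was 1.34 ± 0.22 (adjusted p = 0.00021) with that library and 1.82 without both untreated libraries labelled 1. Stat6, the IL-4 and IL-13 STAT, changed least among the STAT genes called, from 43.7, 34.2 and 35.5 CPM to 60.1, 55.1 and 61.1 CPM (log2 0.64 ± 0.10, adjusted p = 0.0001, or 0.76 without those libraries). Stat4, best known in T and NK cells for IL-12 signals, had 0, 0 and 3 counts untreated and 3, 2 and 0 with LPS, a count ratio of 1.73 with a 95% counting interval of 0.337 to 11.2 (1.19, 0.232 to 7.69, without untreated replicate 1), which shows no detectable difference at this depth.

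Among the feedback genes, Socs3, which blocks the IL-6 receptor chain gp130, and Socs1, which blocks the Janus kinases themselves, rose side by side. Socs3 stood at 42.2, 39.4 and 33.2 CPM untreated and at 210, 200 and 203 CPM with LPS, a log2 fold change of 2.41 ± 0.09 (adjusted p = 1.5e-12), or 2.49 without the untreated libraries labelled 1. Socs1 went from 5.73, 3.95 and 3.86 CPM to 21.3, 23.7 and 21.3 CPM (2.30 ± 0.14, adjusted p = 1.5e-09), or 2.50 without them. In both, the lowest LPS library lay well above the highest untreated one. Socs2, the regulator of growth hormone signals, was the only one of the 9 that fell, from 13.9, 13.7 and 12.3 CPM to 9.96, 10.5 and 8.62 CPM (log2 -0.45 ± 0.13, adjusted p = 0.012, or -0.42 without the untreated libraries labelled 1). The groups did not overlap, but the call was lost without LPS replicate 3 (adjusted p = 0.058, within a range of 0.0018 to 0.058 over the alternatives).

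Cish, a STAT5-driven brake on IL-2 and growth hormone signals, read 7.50, 4.98 and 4.29 CPM untreated and 7.21, 6.41 and 6.11 CPM with LPS. The groups overlapped through untreated replicate 1, and the difference was not called (log2 0.24, 95% interval -0.11 to 0.58, adjusted p = 0.31). Without both untreated libraries labelled 1 it was 0.51 and was called (adjusted p = 0.012, over a range of 0.012 to 0.77 across the alternatives).

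**Figure D1:**
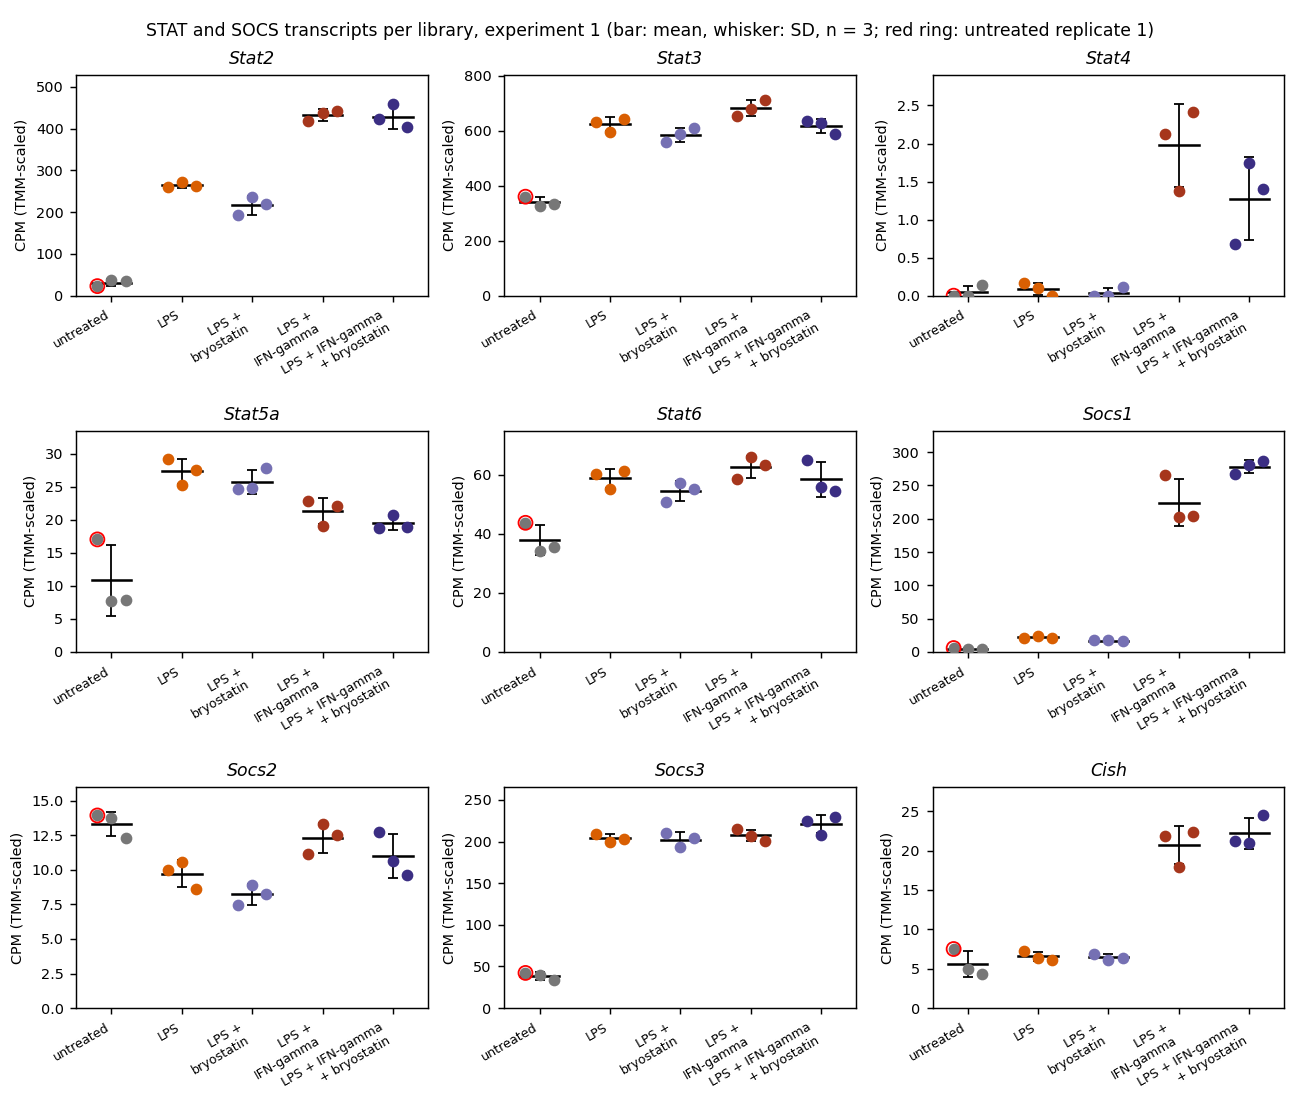
Expression of the 9 genes in the 15 libraries of experiment 1, in CPM on linear axes that start at 0, with 1 point a library, a bar for the mean and a whisker for the SD (n = 3); a red ring marks the untreated library labelled replicate 1. Stat2, Stat3 and Socs3 are high in all libraries that received LPS, while Stat4, Socs1 and Cish stand far higher in the libraries that also received IFN-gamma, up to 286 CPM for Socs1.

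Adding IFN-gamma to LPS raised Socs1, Cish, Stat4 and Stat2, and 0 of the 9 genes fell. Over all tested genes 36% were called and 19.2% rose, beside 4 of 9 here. The median log2 difference was 0.34 over the 9 genes and -0.01 over all tested genes.

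Socs1 went from 21.3, 23.7 and 21.3 CPM with LPS to 266, 202 and 205 CPM with LPS and IFN-gamma. Every IFN-gamma library held far more than any LPS library, and the log2 difference was 3.34 ± 0.13 (adjusted p = 1.4e-11). Cish stood at 7.21, 6.41 and 6.11 CPM with LPS and at 21.9, 18.0 and 22.4 CPM with IFN-gamma added (1.66 ± 0.17, adjusted p = 1.2e-06). No Cish library without IFN-gamma reached the lowest with it.

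Stat4 was close to undetected without IFN-gamma and gave 33, 22 and 38 counts with it, or 2.13, 1.37 and 2.42 CPM. Against the 5 counts of the LPS group, the ratio of the counts summed over each group, scaled by the group's library sizes, was 22.7 (95% counting interval 9.38 to 71.5, adjusted p = 0.0002 by edgeR). The level was still the lowest of the 9 genes. Stat4 passed the low-count filter of experiment 1 through the groups with IFN-gamma, where it is high. Its place in the counts of genes called in that experiment depends on those groups. The call held in all 12 alternatives, no filter on low counts among them. Of 6 T and NK cell markers, Cd3e and Ncr1 were at 0 in the LPS and IFN-gamma group, and the summed markers reached at most 0.25 CPM there and 0.643 CPM in any library of experiment 1.

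Stat2 rose a further step, from 261, 273 and 262 CPM to 417, 437 and 443 CPM (log2 0.70 ± 0.13, adjusted p = 0.00039), with no overlap. Against untreated cultures, which both comparisons share, LPS with IFN-gamma changed 8 of the 9 genes, all upward, where 58.1% of all tested genes were called and 29.5% rose. Its log2 fold changes were 5.64 for Socs1, 3.78 for Stat2, 2.44 for Socs3 and 1.89 for Cish. Without both untreated libraries labelled 1 these were 5.84, 3.60, 2.52 and 2.16, and again 8 were called, all higher. In that fit 9997 of all 16417 tested genes were called.

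Socs3, Stat3, Stat6, Stat5a and Socs2 were not called between LPS with IFN-gamma and LPS. Socs3 read 215, 206 and 201 CPM with IFN-gamma against 210, 200 and 203 CPM without it. The groups overlapped, with a log2 difference of 0.02 and a 95% interval of -0.13 to 0.18, narrow beside the rise that LPS alone gave. Stat3 was higher in every IFN-gamma library than in any LPS library, by 0.13 (interval -0.01 to 0.27), and Stat6 differed by 0.09 (-0.11 to 0.29). Stat5a was lower in every IFN-gamma library, at 22.8, 19.1 and 22.0 CPM, than in any LPS library, but the difference of -0.36 (-0.78 to 0.06) was not called (adjusted p = 0.21); it was called when only the groups compared were fitted (adjusted p = 0.013, range 0.013 to 0.41 over the alternatives). Socs2 stood at 11.2, 13.3 and 12.5 CPM with IFN-gamma, above all LPS libraries, with a difference of 0.34 (0.08 to 0.60, adjusted p = 0.055). It was not called (0.043 without LPS with IFN-gamma replicate 1, range 0.028 to 0.21 over the alternatives), and its libraries overlapped the untreated ones (log2 -0.11 against untreated, interval -0.37 to 0.14, and -0.08 without the untreated libraries labelled 1).

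The same step in cultures that also had bryostatin gave calls for 5 of the 9 genes, all higher, where 36.9% of all genes were called and 18.9% rose. Socs1 rose from 17.5, 17.2 and 16.6 CPM to 267, 281 and 286 CPM (4.02 ± 0.13, adjusted p = 2.5e-12), and Cish from 6.83, 6.09 and 6.42 CPM to 21.2, 21.0 and 24.5 CPM (1.78 ± 0.17). Stat2 went from 192, 237 and 218 CPM to 423, 460 and 404 CPM (0.99 ± 0.13). All 3 genes kept their groups well apart. Stat4 had 0, 0 and 2 counts before and 11, 30 and 21 after, a ratio of 36.2 with a counting interval of 9.61 to 306. Socs2 was the smallest of the calls (0.42 ± 0.13, adjusted p = 0.022), and it was lost without LPS with bryostatin replicate 1 or 3, without the triple treatment replicate 1 and with no filter on low counts (range 0.0057 to 0.11 over the alternatives). Socs3 and Stat3 differed here by 0.13 and 0.07, and Stat5a by -0.41, none of them called. Fitted on these groups only, Stat5a was called (adjusted p = 0.0057, range 0.0057 to 0.33 over the alternatives).

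Bryostatin changed none of the 9 genes past the threshold in LPS-treated cultures, where 6.89% of all tested genes were called. By edgeR 0 of 9 were called, 2 had an unadjusted p under 0.05, and DESeq2 called 1. Among all 16073 tested genes, 3099 had an unadjusted p under 0.05 and DESeq2 called 1462. The 2 of the 9 genes were Socs1 and Stat2. Socs1 read 17.5, 17.2 and 16.6 CPM with bryostatin and 21.3, 23.7 and 21.3 CPM without. All bryostatin libraries were lower, with a log2 difference of -0.37 (95% interval -0.62 to -0.13) and an adjusted p of 0.094 that ran from 0.0041 to 0.28 over the alternatives. Stat2 was at 192, 237 and 218 CPM with bryostatin, below every LPS library (-0.30, interval -0.54 to -0.05, adjusted p = 0.2, range 0.0017 to 0.52). Socs3, at 210, 193 and 204 CPM, overlapped its LPS libraries. Socs2 and Stat6 differed by -0.24 (-0.50 to 0.02) and -0.11 (-0.31 to 0.08). Stat4 had 2 counts against 5, a ratio of 0.408 with a counting interval of 0.0388 to 2.49. Microglial markers summed to 754 to 845 CPM with bryostatin and to 1037 to 1132 CPM without, and astrocyte markers to 6839 to 7160 against 8897 to 9433 CPM. Neuron markers summed to 87.7 to 96.5 CPM against 50.9 to 55.7 CPM. Their part in these differences was not tested.

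In cultures with LPS and IFN-gamma, bryostatin again gave 0 calls of 9, with 1 gene at an unadjusted p under 0.05 in edgeR and 0 called by DESeq2, where 3.38% of all tested genes were called. Among all 16073 tested genes, 2447 had an unadjusted p under 0.05 and DESeq2 called 856. Here Socs1 went the other way. It read 267, 281 and 286 CPM with bryostatin and 266, 202 and 205 CPM without, so the lowest bryostatin library was only just above LPS with IFN-gamma replicate 1. The log2 difference was 0.31 (95% interval 0.09 to 0.53, adjusted p = 0.17). Without that replicate it was 0.45 and was called (adjusted p = 0.029, range 0.029 to 0.47 over the alternatives). The difference between both bryostatin effects on Socs1, tested as an interaction, was 0.68 ± 0.17 on the log2 scale (adjusted p = 0.21), in a test that called 0.118% of all genes. None of the 9 was called, 1 had an unadjusted p under 0.05, and DESeq2 called 1, Socs1. For the interaction, 1021 of all 16073 genes had an unadjusted p under 0.05 and DESeq2 called 84. The adjusted p for Socs1 ran from 0.0048 to 0.64 over 18 alternatives and was under the threshold in 4, among them without LPS with IFN-gamma replicate 1 (0.04). Stat3 was at 634, 628 and 589 CPM with bryostatin, below all libraries of LPS with IFN-gamma at 656, 681 and 712 CPM, by -0.15 (-0.29 to -0.01, adjusted p = 0.34). That interval excludes 0, but the unadjusted p by edgeR was 0.056. Socs2 differed by -0.16 (-0.42 to 0.10). Stat4 had 62 counts against 93, a ratio of 0.651 whose counting interval of 0.464 to 0.908 covers counting error only, while the libraries overlapped (adjusted p = 0.65). Astrocyte markers summed to 4803 to 4823 CPM in the triple treatment and to 6784 to 7315 CPM in LPS with IFN-gamma, microglial markers to 601 to 754 against 749 to 854 CPM, and neuron markers to 136 to 152 against 105 to 121 CPM. Their part in the values of Socs1 and Stat3 was not tested.

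IL-4 changed 1 of 8 genes tested in experiment 2, Socs1, where 0.583% of 15604 tested genes were called and 0.5% rose. Socs1 stood at 5.43, 5.74 and 3.87 CPM untreated and at 13.2, 21.6 and 20.0 CPM with IL-4. The lowest IL-4 library, replicate 1, lay well above all untreated ones, and the log2 fold change was 1.86 ± 0.23 (adjusted p = 0.0021), or 1.92 without both untreated libraries labelled 1 (adjusted p = 0.0057). The call held in all 13 alternatives, with adjusted p-values from 1e-11 to 0.048. The endothelial marker sum was higher beside it, at 84.5 to 119 CPM with IL-4 and 35.0 to 43.8 CPM untreated. Cldn5 was at 0 in both. These markers include Flt1, which is also in the list of IL-4 targets used below, so the sum is not a measure of endothelial cells alone. The part of this sum in the Socs1 value was not tested.

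The level of Socs1 reached with IL-4 was near that reached with LPS in the other experiment, a pair of values that were not tested against each other. Stat6 itself, the factor IL-4 activates, read 39.0, 44.8 and 49.5 CPM untreated and 41.3, 47.7 and 51.0 CPM with IL-4. Its libraries overlapped and the difference was 0.07 (95% interval -0.16 to 0.30), or -0.017 without the untreated libraries labelled 1. Socs2 was at 13.5, 13.0 and 14.6 CPM untreated and at 17.4, 18.7 and 16.7 CPM with IL-4. No library overlapped, yet the difference of 0.36 (0.16 to 0.56) was not called (adjusted p = 0.25, range 0.069 to 0.65 over the alternatives), and was 0.35 without the untreated libraries labelled 1. Stat5a and Cish differed by 0.37 (0.06 to 0.67) and 0.48 (0.10 to 0.85), both with an adjusted p of 0.45. Without the untreated libraries labelled 1 these were 0.19 and 0.32. Socs3 differed by -0.18 (-0.48 to 0.12), or -0.20 without them. Stat4 gave 0, 0 and 1 counts untreated and 0 in all IL-4 libraries, and was too low to be tested in this experiment.

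Where bryostatin was present in both groups, IL-4 again raised Socs1 among the 8 genes tested, and 0.91% of all genes were called, 0.775% higher. Socs1 went from 7.45, 9.67 and 6.00 CPM with bryostatin to 16.7, 19.0 and 15.8 CPM with both (1.15 ± 0.23, adjusted p = 0.038). The groups did not overlap, but the call was lost when any 1 of the 3 libraries with both agents, or bryostatin replicate 1 or 3, was left out (adjusted p 0.12 to 0.21). Without bryostatin replicate 2 it was 1.35 (adjusted p = 0.03). Libraries of these 2 groups with the same number deviated together (r of 0.519, 0.633 and 0.233), and with the number as a block in a fit of these groups Socs1 differed by 1.18 (adjusted p = 0.0033), while 250 of all genes were called in place of 142. Endothelial markers, Flt1 among them, summed to 32.4 to 41.0 CPM with bryostatin and 114 to 139 CPM with both agents. Socs2 and Cish differed by 0.26 (0.06 to 0.45) and 0.33 (-0.04 to 0.70), neither called. The Socs1 interaction between bryostatin and IL-4 was -0.71 ± 0.32 (95% interval -1.34 to -0.08, adjusted p = 0.94), or -0.76 without the untreated libraries labelled 1. In that test edgeR called 0 of 8 genes and 0 of all genes, 0%, with 1 of the 8 and 327 of all genes at an unadjusted p under 0.05. DESeq2 called 0 of the 8 and 4 of all genes.

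**Figure D2:**
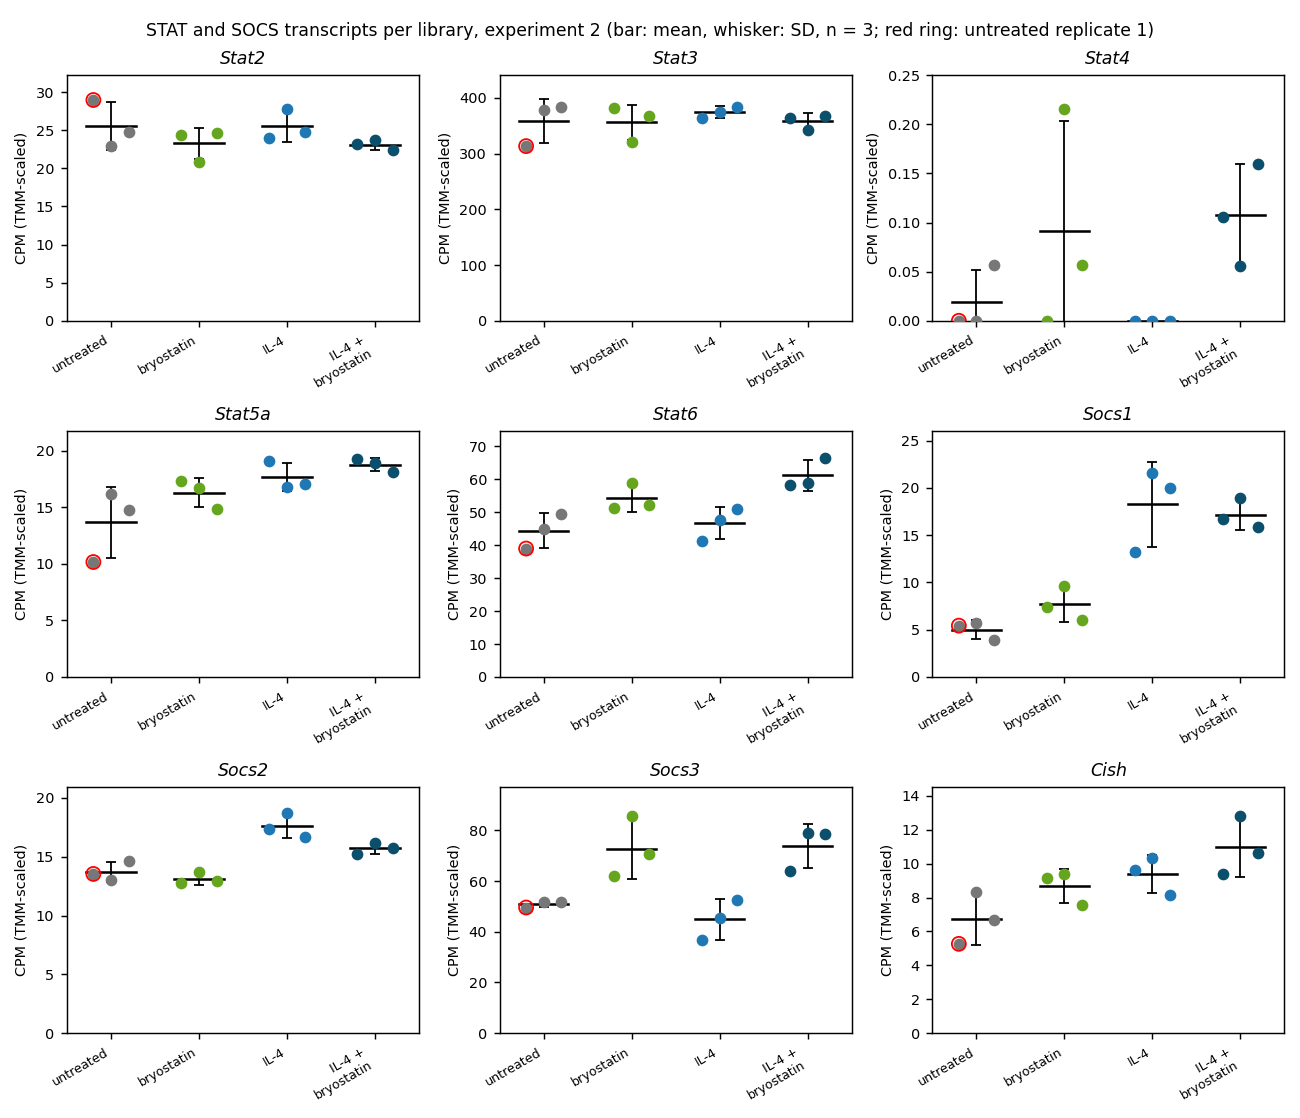
Expression of the 9 genes in the 12 libraries of experiment 2, in CPM on linear axes that start at 0, drawn like the plot of experiment 1. Socs1 is higher in the libraries with IL-4 and Socs3 in those with bryostatin (up to 85.9 CPM), while Stat4 stays below 0.22 CPM.

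Bryostatin alone gave 0 calls of 8 in edgeR against untreated cultures, where 3.62% of all tested genes were called. Of the 8, 3 had an unadjusted p under 0.05 and DESeq2 called 1, Socs3. Among all 15604 tested genes, 2947 had an unadjusted p under 0.05 and DESeq2 called 1337. Socs3 stood at 49.6, 51.6 and 51.6 CPM untreated and at 61.9, 85.9 and 70.8 CPM with bryostatin. All bryostatin libraries were higher, the highest being replicate 2, with a log2 difference of 0.52 (95% interval 0.22 to 0.81, adjusted p = 0.092, range 0.0082 to 0.34). Without bryostatin replicate 2 it was 0.39 (adjusted p = 0.14), and without both untreated libraries labelled 1 it was 0.48 (adjusted p = 0.2). Socs1 was at 7.45, 9.67 and 6.00 CPM with bryostatin and at 5.43, 5.74 and 3.87 CPM without, again with no overlap (0.62, interval 0.16 to 1.08, adjusted p = 0.18, range 0.046 to 0.47). It was 0.43 without bryostatin replicate 2 and 0.66 without the untreated libraries labelled 1. Stat6 read 51.3, 59.0 and 52.4 CPM with bryostatin against 39.0, 44.8 and 49.5 CPM (0.29, interval 0.05 to 0.52, adjusted p = 0.22), with 0.23 without bryostatin replicate 2 and 0.18 without the untreated libraries labelled 1. Cish and Stat5a differed by 0.36 (-0.01 to 0.74) and 0.25 (-0.05 to 0.56), and by 0.20 and 0.06 without those libraries.

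On top of IL-4, bryostatin raised 1 of 8 genes, Socs3, where 4.13% of all tested genes were called and 2.7% rose. Socs3 went from 36.6, 45.6 and 52.4 CPM to 63.9, 79.0 and 78.5 CPM. The groups did not overlap, and the log2 difference was 0.72 ± 0.15 (adjusted p = 0.024). The call was lost without IL-4 replicate 1 or 2, or without replicate 2 or 3 of IL-4 with bryostatin (adjusted p 0.096 to 0.11). Its interaction with IL-4 was 0.20 (-0.22 to 0.62, adjusted p = 0.94), or 0.23 without the untreated libraries labelled 1. Stat6 stood at 58.2, 58.8 and 66.6 CPM, above all IL-4 libraries, by 0.39 (0.16 to 0.62, adjusted p = 0.1); 4 of 13 alternatives called it, and adjusted p-values ran from 0.006 to 0.36. Socs1 differed by -0.09 (-0.52 to 0.34), with overlap. Microglial markers summed to 1573 to 2212 CPM with IL-4 and 2128 to 2712 CPM with both agents, and astrocyte markers to 11485 to 12324 and 8283 to 9409 CPM. In the untreated and bryostatin groups the microglial sums were 1941 to 2479 and 1804 to 2642 CPM, and the astrocyte sums 12509 to 17366 and 8354 to 10452 CPM. Neuron markers summed to 46.1 to 69.8 CPM untreated, 69.2 to 93.2 with bryostatin, 40.2 to 50.6 with IL-4 and 73.2 to 82.8 CPM with both. What part these have in the values of Socs3 and Stat6 was not tested. Whether bryostatin acts differently on Socs3 in experiment 1, where its LPS libraries overlapped, and in experiment 2 was not tested, because comparisons were kept within an experiment.

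**Figure D3:**
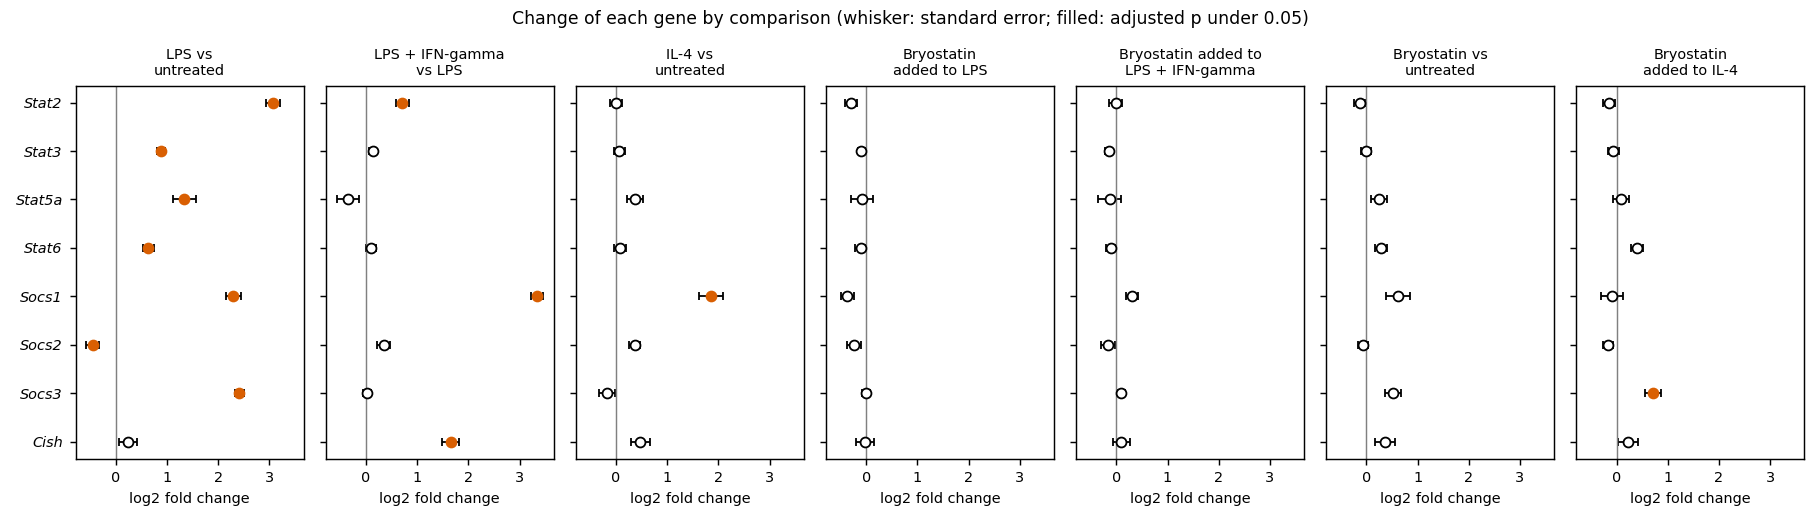
Log2 fold change of 8 genes in 7 comparisons fitted with edgeR, with the standard error as whiskers and filled points for an adjusted p under 0.05; Stat4 is left out because of its low counts. LPS moved most of the genes, IFN-gamma moved Socs1, Cish and Stat2, IL-4 moved Socs1 (1.86), and the only filled point among the bryostatin panels is Socs3 with IL-4 (0.72).

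Levels can be set between genes only per gene length, for which the authors' FPKM (read counts scaled by library size and by kilobases of gene model) were read. In untreated cultures of experiment 1, Stat3 was highest at 37.0 ± 1.49 FPKM (SD, n = 3), then Socs3 at 13.7 ± 1.54, Stat6 at 8.89 ± 1.09 and Stat2 at 5.51 ± 1.36 FPKM, each with no library overlapping the next. Socs1, Stat5a and Socs2 lay between 1.45 and 1.61 FPKM and overlapped, with Cish below them at 0.901 and Stat4 last at 0.0129 FPKM. Experiment 2 gave the same first 4 genes in its untreated group, with Stat3 at 36.0 ± 4.47 FPKM. With LPS, Socs3 (72.4 ± 1.93 FPKM) passed Stat3 (67.4 ± 2.80) and Stat2 reached 46.0 ± 1.11 FPKM. With IFN-gamma as well, Socs1 went from rank 5 to 79.1 ± 12.3 FPKM, where it overlapped Stat2, Socs3 and Stat3 at 73.6 to 74.9 FPKM. In the triple treatment Socs1 stood alone at the top with 98.1 ± 3.49 FPKM. In all groups of experiment 2 Stat3 stayed first and Socs3 second, and Socs1 took rank 4 with IL-4, at 6.05 ± 1.50 FPKM, where it overlapped Stat2 at 4.15 ± 0.344 FPKM.

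**Figure D4:**
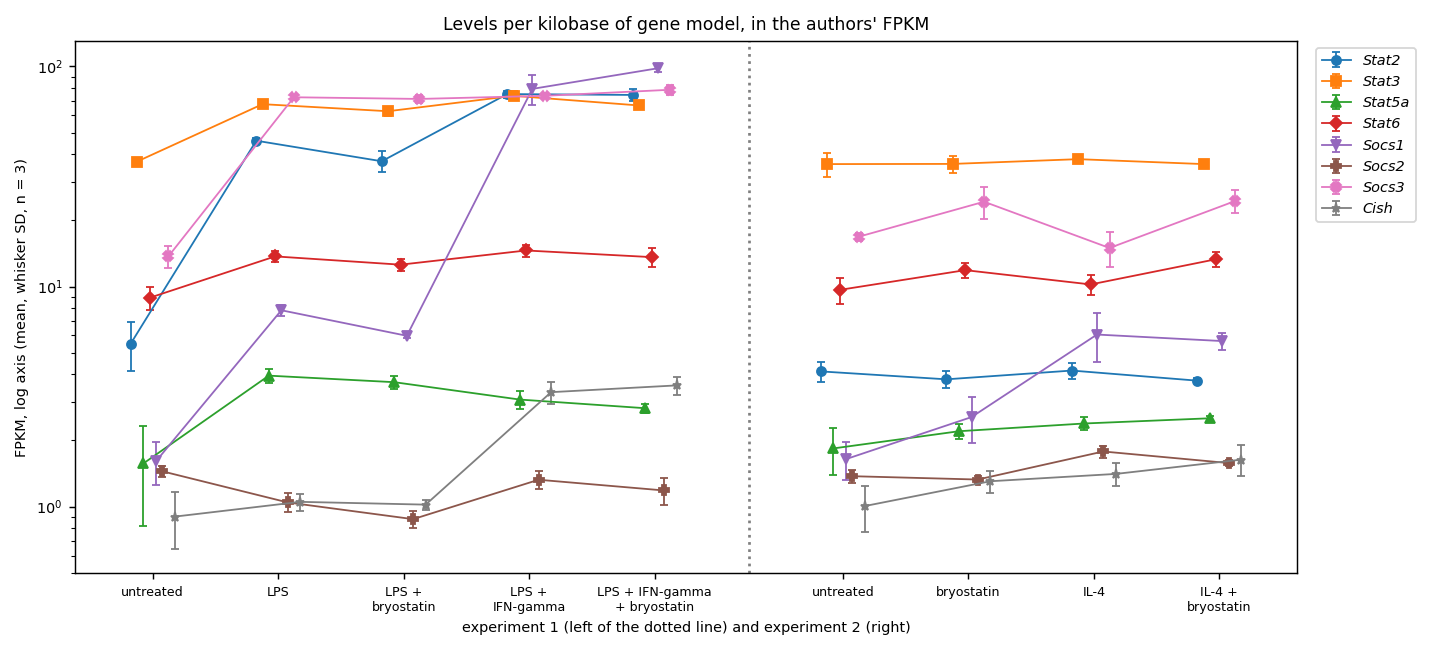
Mean FPKM of 8 genes on a log axis in the 9 groups, with the SD over 3 libraries as whiskers and lines that only join the points of a gene; Stat4, below 0.53 FPKM everywhere, is left out. Group means run from 36.0 to 73.6 FPKM for Stat3 and from 8.89 to 14.6 FPKM for Stat6, while Socs1 crosses from the low group to the top with IFN-gamma (79.1 FPKM).

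Within each gene, the order of the groups differed. How many of all genes keep these groups apart was not counted. Groups that do not overlap, here and above, thus describe each gene only. Stat2 and Socs1 had all 3 libraries of each of LPS with IFN-gamma, LPS, LPS with bryostatin and untreated cultures apart from the next, in that order. Socs3, Stat3 and Stat6 separated untreated cultures from all that had LPS, and the groups with LPS overlapped, except that Stat3 was highest with LPS and IFN-gamma. Cish and Stat4 separated the groups with IFN-gamma from those without. Stat5a was highest with LPS and with LPS and bryostatin, which overlapped each other and none of the groups with IFN-gamma.

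Likeness to other genes was read as Pearson's r of log2 CPM over the libraries of an experiment, among protein-coding genes, as a description over libraries that share their treatment groups. In the 15 libraries of experiment 1, Stat2 followed Cxcl10 (0.998), Vcam1 (0.998) and Gbp9 (0.997) most closely, and Stat3 followed Cfb (0.994), Hif1a (0.989) and Ptpn2 (0.985). Socs3 was nearest to Tnfrsf1b (0.995), Timp1 (0.995) and Junb (0.993). Socs1 was nearest to Apol6, Kars and March5 (all 0.996), and Cish to Pgd (0.994), Sesn2 and Naglu (both 0.989). Stat5a paired with Susd6 (0.968), Trem1 (0.952) and Grk2 (0.950), and Stat6 with Clip4 (0.966), Stat3 (0.963) and Fmnl2 (0.960). Socs2 had no partner above 0.909, that of Enah. In the 12 libraries of experiment 2, Socs1 was nearest to Prkcd (0.955), Itgax (0.950) and Arg1 (0.946). Socs3 was nearest to Ncf1 (0.990), Fcer1g (0.981) and Slc38a10 (0.972), and Stat6 to Nckap1l (0.968), Myo1f (0.966) and Plcg2 (0.964). Of these, Ncf1, Fcer1g, Nckap1l and Myo1f are known as genes of myeloid cells. Socs2 stood nearest to Cd74 (0.920), Retnla (0.901) and Slc2a6 (0.886).

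Of 58 other genes of the pathway, kinases, receptor chains, ligands and negative regulators, 53 were measured in experiment 1. With LPS, 33 rose and 2 fell, with or without both untreated libraries labelled 1, where 38.4% of all tested genes were called. The low-count filter works by group, so a gene can be measured through a group where it is high, which favours rises. Of 18 ligands, 13 were measured in experiment 1 and 6 in experiment 2, and 10 of the 13 are among the rises with LPS. Among the Janus kinases, which phosphorylate the STATs, Jak2 went from 67.6 to 181 CPM (log2 1.42 ± 0.11) and Tyk2 from 24.0 to 39.9 CPM (0.73 ± 0.08). Receptor chains rose in 15 of 22 cases with a median of 0.56, against -0.01 over all genes, led by Il12rb1 and the common gamma chain Il2rg (2.95 ± 0.16). Of the other negative regulators 5 of 10 rose, with Usp18, which shuts off the interferon receptor, at 5.22 ± 0.27 and the phosphatase Ptpn2 at 1.58 ± 0.09. Of the 4 other SOCS genes Socs5 rose (0.47 ± 0.10) and Socs7 fell (-0.31 ± 0.09).

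Adding IFN-gamma to LPS raised 30 of the 53 and lowered 7, where 36% of all tested genes were called. Beside Stat4, the chains of the IL-12 receptor that signals through it and the ligand subunit Il12b rose: Il12rb1 went from 1.31 to 31.4 CPM (4.58 ± 0.17), Il12rb2 from 0.228 to 3.32 CPM (3.83 ± 0.48) and Il12b from 1.64 to 38.8 CPM (4.57 ± 0.31). Tyk2 rose by 0.80 ± 0.08, Jak2 by 0.45 ± 0.11 and Lif by 2.72 ± 0.20. Csf3r, the receptor of G-CSF, fell by 1.46 on the log2 scale and Il10 by 3.81. In cultures that held bryostatin throughout, 28 rose and 6 fell, where 36.9% of all genes were called.

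With bryostatin, 5 of the 53 were called higher and 5 lower under LPS, where 6.89% of all genes were called. Under LPS and IFN-gamma 3 were higher and 2 lower, where 3.38% of all genes were called, and 5 were higher and 2 lower when the untreated library labelled 1 was left out of the shared fit. Ptpn1, a phosphatase of Janus kinases, was lower in both, by -0.49 ± 0.07 and -0.50 ± 0.07, and Lif was higher in both, by 0.98 ± 0.20 and 0.77 ± 0.18. Il12rb1, so much higher with IFN-gamma, was lower with bryostatin under LPS (1.31 to 0.334 CPM, -1.94 ± 0.27). In experiment 2, 45 of the 58 were measured. IL-4 gave 0 calls among them in edgeR, where 0.583% of all 15604 tested genes were called, so 0 of 45 lies near that share. Of the 45, 9 had an unadjusted p under 0.05 in edgeR, beside 1666 of all genes. DESeq2 called 2 of the 45, beside 223 of all genes. Bryostatin alone raised 3 and lowered 1, where 3.62% of all genes were called, or 2 and 0 without both untreated libraries labelled 1. On top of IL-4 it raised 6 and lowered 1, where 4.13% were called, or 8 and 3 without the untreated library labelled 1. The GM-CSF receptor chain Csf2rb was higher in both, by 1.61 ± 0.20 and 1.30 ± 0.20, and oncostatin M, Osm, a STAT3 and STAT5 ligand, rose with IL-4 and bryostatin over IL-4 (1.90 ± 0.26).

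Known targets of the factors, from lists whose choice came after earlier results, are counted beside the same shares of all genes, 38.4% with LPS, 36% with IFN-gamma added and 0.583% with IL-4. All 15 interferon target genes rose with LPS, with Mx1 at 7.27 ± 0.17 and Irf7 at 6.77 ± 0.29, the treatment in which Stat2 rose. With IFN-gamma added, 6 rose and 1 fell, or 12 and 1 without both untreated libraries labelled 1, and the 1 that fell was Irf9, the DNA-binding partner of Stat2 (-0.32 ± 0.09). Of 15 STAT3 targets, 11 rose and 3 fell with LPS; Lcn2 rose by 8.43 ± 0.18 and Gfap, the astrocyte filament, fell by 0.88. Of 8 STAT5 targets, 4 rose and 2 fell with LPS. The kinase gene Pim1 rose by 2.39 ± 0.13 and again by 1.62 ± 0.11 with IFN-gamma, a step at which Cish rose. At that step 4 of the 8 STAT5 targets rose and 2 fell, or 5 and 2 without both untreated libraries labelled 1. Of the 15 STAT3 targets, 5 rose and 3 fell there. The lists share genes: Pim1 and Bcl6 are in both the STAT3 and the STAT5 list, so neither tells these factors apart. Usp18, Il4ra, Osmr and Osm are also among the pathway genes above, and Gfap is also an astrocyte marker. Of 14 IL-4 targets, 11 were measured in experiment 2 and 8 in experiment 1. The low-count filter can admit a target through the group where it is high, which favours rises in the count. Of the 11, 8 rose with IL-4 and 8 with IL-4 in the presence of bryostatin, where 0.583% and 0.91% of all genes were called. Stat6 was not called different in either comparison.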

How the data were processed

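Read counts per gene were measured by RNA sequencing of unstranded libraries of polyadenylated RNA, per the labels' protocols. The submitters' processing notes name fastp, STAR, featureCounts and the build mm10, and their versions are not given in the sources used here. Raw counts were deposited by the authors as whole numbers without normalization for 54532 genes with positions and gene lengths. The authors also deposited FPKM values, scaled by those lengths, which served for levels only. Groups came from the labels.

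Tests ran in edgeR 4.0.16 (R 4.3.3) on the counts, each experiment in 1 fit of all its groups: low counts filtered by group, TMM scaling, robust quasi-likelihood F test, Benjamini-Hochberg adjustment over all genes, called at an adjusted p under 0.05. The 10 group comparisons and 2 interactions were tested. The standard error is the log2 fold change over the root of F, and 95% intervals rest on it with the normal quantile. They are narrower than the F test with few libraries allows. An interval can thus exclude 0 where the unadjusted p is not under 0.05. Counting intervals and floors (3 counts) cover counting error only. The script was tested on simulated data. DESeq2 1.42.0 and other settings were alternatives. Replicate numbers were checked as pairs by the correlation of library deviations from the group means; with every pair over 0.1, bryostatin and IL-4 with bryostatin were also compared with the number as a block, an alternative chosen after seeing the data. The genes and all lists were chosen with earlier results of these data known. Named list genes are up to 2 called per direction and role group, the largest changes among those whose groups do not overlap, and the text leaves some out for length. Likeness used log2(CPM + 0.5), the 3 highest r per gene, and protein-coding genes whose highest group averaged 5 CPM or more. Sox10 was chosen after its values were seen.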

Additional observations from a re-analysis of the deposited data

How the results depend on the processing

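Over all alternatives, the log2 values of the genes in every comparison where they were tested kept their direction and their side of the threshold in 1309 cases, gained a call in 22, lost one in 14 and changed sign in 65. All sign changes were of differences that were not called. Leaving out 1 library, they were in these ranges: Socs3 with IFN-gamma added to LPS (-0.00040 to 0.046); with bryostatin added to LPS, Socs3 (-0.041 to 0.022) and Cish (-0.076 to 0.041); Stat2 with bryostatin added to LPS and IFN-gamma (-0.066 to 0.037). For the interaction with IFN-gamma they were Stat4 (-0.18 to 3.13), Stat5a (-0.11 to 0.016), Stat6 (-0.067 to 0.069) and Socs2 (-0.034 to 0.17). Stat3 with bryostatin alone ran from -0.12 to 0.066, and Socs1 with bryostatin added to IL-4 from -0.28 to 0.051. With IL-4 they were Stat2 (-0.069 to 0.097), Stat3 (-0.026 to 0.12) and Stat6 (-0.017 to 0.15), and with IL-4 added to bryostatin Stat2 (-0.081 to 0.031), Stat3 (-0.062 to 0.059) and Socs3 (-0.087 to 0.16). For the interaction with IL-4 they were Stat2 (-0.097 to 0.059), Stat3 (-0.14 to 0.043), Stat5a (-0.30 to 0.024) and Cish (-0.32 to 0.016). Without both untreated libraries labelled 1, Stat2 with IL-4 was 0.097, Stat3 -0.026 and Stat6 -0.017, and the interactions with IL-4 were 0.043 for Stat3, 0.024 for Stat5a and 0.016 for Cish. Stat2 with IL-4 was also 0.0095 in DESeq2, 0.010 with DESeq2 size factors, 0.012 with all 27 libraries in 1 fit, 0.00070 with no filter, 0.0081 with only the groups compared and 0.0017 with a replicate block. With only the groups compared, Stat2 was 0.0031 for bryostatin with LPS and IFN-gamma and 0.00010 for IL-4 added to bryostatin, or 0.0028 there with the block as well. Without both untreated libraries labelled 1 and the bryostatin and IL-4 with bryostatin libraries labelled 2, Stat2 with bryostatin was 0.024, Stat3 with IL-4 added to bryostatin -0.029 and the Stat5a interaction with IL-4 0.031. The count of the 9 genes called for bryostatin with LPS was 0, and 1 in DESeq2, 1 with no filter and 2 with only the groups compared. For the interaction of bryostatin and IFN-gamma it was 0, and 1 in DESeq2, 1 with no filter, 1 with only the groups compared and 0 to 1 leaving out 1 library. For bryostatin with LPS and IFN-gamma it was 0 to 1 leaving out 1 library. For bryostatin alone it was 0, and 1 in DESeq2 and 2 with all 27 libraries in 1 fit. For bryostatin with IL-4 it was 1, and 2 in DESeq2, 2 with all 27 libraries, 2 with only the groups compared and 2 without both untreated libraries labelled 1 and the bryostatin and IL-4 with bryostatin libraries labelled 2, a set taken from an earlier reading of these data, and 0 to 1 leaving out 1 library. For IL-4 with bryostatin against bryostatin it was 1, and 0 to 1 leaving out 1 library. Where the count is 0 or 1, a single gene sets these ranges. For IL-4 against untreated it stayed at 1, for LPS it was 6 to 8 and for LPS with IFN-gamma against untreated 8.

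The background counts moved more. Bryostatin with LPS called 1108 genes, and 3354 with only the groups compared and 588 to 689 leaving out 1 library. Bryostatin with LPS and IFN-gamma called 543, and 856 in DESeq2 and 242 to 434 leaving out 1 library. The interaction with IFN-gamma called 19, and 84 in DESeq2, 7 with all 27 libraries, 55 with no filter, 112 with only the groups compared and 4 to 19 leaving out 1 library. Bryostatin alone called 565, and 1337 in DESeq2, 1548 with all 27 libraries, 2284 without the 4 libraries named above, 9 with only the groups compared and 188 to 824 leaving out 1 library. IL-4 called 91, and 223 in DESeq2, 224 with all 27 libraries and 41 with only the groups compared. Bryostatin with IL-4 called 644, and 1213 in DESeq2, 1325 with all 27 libraries, 2943 without the 4 libraries, 2703 with only the groups compared and 172 to 371 leaving out 1 library. IL-4 with bryostatin against bryostatin called 142, and 223 in DESeq2, 233 with all 27 libraries, 253 without the 4 libraries, 250 with a replicate block in these groups alone and 68 to 119 leaving out 1 library. The interaction with IL-4 called 0, and 4 in DESeq2, 5 with all 27 libraries and 1 without the 4 libraries; with only the groups compared it equals the fit used. The cause of these shifts was not tested.

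The labels do not say what a replicate number shares. Deviations of same-numbered libraries correlated at -0.388 to 0.406 in experiment 1 (3 of 30 pairs over 0.1) and at -0.565 to 0.633 in experiment 2 (6 of 18). All 3 pairs were over 0.1 for bryostatin with IL-4 and bryostatin (0.519, 0.633 and 0.233), and for LPS with bryostatin and LPS with IFN-gamma (0.406, 0.231 and 0.180), which were not compared; no other pair of groups met this, and 8 of 15 and 7 of 12 libraries correlated best with their own number. With a replicate block in the fit of all groups the count of these genes called was the same in all 12 comparisons (7 for LPS, 0 for bryostatin with LPS), and 5935 genes in place of 6164 were called for LPS.

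Depth limits Stat4, which rests on 93 counts or fewer in any group.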
